A study of Mus musculus with 12 samples.

Results

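The genes described here encode the sensors of the unfolded protein response, the transcription factors that relay it and 4 of its downstream products. They are Ern1, Eif2ak3, Atf6, Xbp1, Atf4, Ddit3, Trib3, Herpud1, Edem1 and Sel1l, chosen by name, and each was found on the array as 1 transcript cluster with 1 gene symbol, so that 10 of 35556 clusters are described. A transcript cluster is the set of probes read together as 1 transcribed region. Expression was measured in the septum (the whole septum by the methods, the lateral septum by the sample labels), a forebrain region linked to emotional and maternal behavior, of 6 lactating and 6 virgin female mice with 1 GeneChip Mouse Gene 1.0 ST array per mouse. Lactating mice were taken between postpartum days 6 and 8 after being housed with a breeder male, and virgin mice of the same age, about 70 days, had been co-housed with other females. All 12 animals came from 1 line, selected for high maternal aggression from outbred hsd:ICR stock, and all received breeder chow. The virgin mice were not in proestrus, and mating, pregnancy, birth, lactation and contact with pups were present together in 1 group and absent from the other, so that their parts cannot be told apart.

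When unfolded proteins gather in the endoplasmic reticulum (ER), 3 membrane proteins sense them. IRE1, the product of Ern1, removes a short intron from Xbp1 mRNA so that the active factor XBP1 is made. PERK, the product of Eif2ak3, phosphorylates the initiation factor eIF2alpha, which lowers general translation and favors translation of Atf4. ATF6 moves to the Golgi, where it is cut to release a transcription factor. The factors together raise transcripts for chaperones and for ER-associated degradation (ERAD), in which misfolded proteins are sent back to the cytosol for destruction. The array measured how much transcript of these genes was present. It did not measure splicing, phosphorylation or cleavage, and the single Xbp1 cluster does not separate spliced from unspliced mRNA.

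Of the 10 genes, Xbp1 and Sel1l were higher in lactating mice by limma (unadjusted p under 0.05), and 0 were lower. Xbp1 was 11.3% higher and Sel1l 7.27% higher on the intensity scale. The 3 sensor genes had positive differences of 3.34% to 4.52% that did not pass the test, and the differences of Ddit3, Trib3 and Edem1 lay between −2.25% and −1.46%, also without passing. Among all clusters 3.26% were higher and 4.69% lower at this p, or 1160 and 1668 clusters. That split depended on scaling: with array medians subtracted it was 2027 and 992, and after quantile normalization 1301 and 1191. Among the 9584 clusters with 1 gene symbol whose mean lay within the intensity range of the 10 genes, 437 to 2875, the share that was higher was 6.63%. The median log2 difference of the 10 genes was 0.06, with 7 positive and 3 negative values, against 0.03 for clusters in that intensity range and −0.01 for all clusters. With 10 genes, 2 calls are few to set beside these shares. At the stricter unadjusted p under 0.0025 that the study used, 0 of the 10 were higher on the log2 scale, where 0.16% of all clusters were. On linear intensities Sel1l was under that cutoff (limma, unadjusted p = 0.000467). After adjustment over all clusters limma called 0 of the 10 genes and 0% of all clusters at an adjusted p under 0.05.

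**Figure D1:**
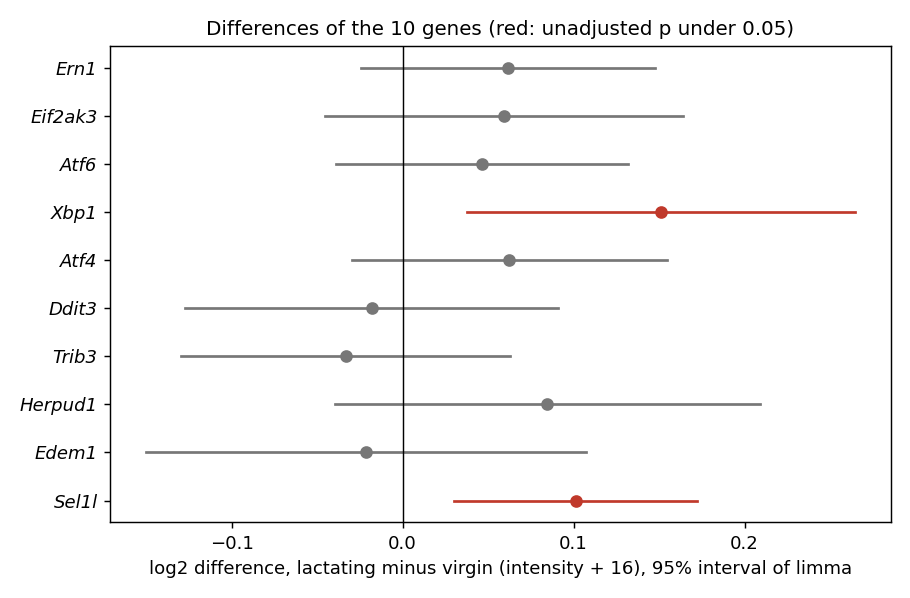
Log2 difference of intensity plus 16 between lactating and virgin mice (horizontal axis) for the 10 genes (vertical axis), with the 95% interval from limma, 6 mice per group, and red for an unadjusted p under 0.05. The intervals of Xbp1 and Sel1l lie above 0, and those of the other 8 genes include 0.

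Promoter sequence bears on these genes because the factors of the response are known to bind short elements near the start of their targets. The classic ER stress response element is CCAAT, then 9 bases, then CCACG. Its variant, element II, is ATTGG, 1 base and CCACG. The letters TGATGNAA, with N for any base, are a core bound by ATF4 with a C/EBP partner, and TGACGTG is a core of CRE-like sites. All were searched on both strands, from 250 bases before to 50 after the start, in the promoters that RefSeq gives for GRCm38.p6. A window was used for 9 of the 10 genes, all but Atf6, and those of Edem1 and Eif2ak3 do not lie at the outermost start of the gene. The 150 bases before the start are shown for both genes that were higher, for Herpud1, which holds 2 of the elements, and for the chaperone gene Hspa5 as a comparison. Capitals mark letters of a matched element or of a CCAAT box, the latter alone or as part of an element, and each line runs 5′ to 3′ toward the gene.
Xbp1, chr11:5520491-5520640, plus strand: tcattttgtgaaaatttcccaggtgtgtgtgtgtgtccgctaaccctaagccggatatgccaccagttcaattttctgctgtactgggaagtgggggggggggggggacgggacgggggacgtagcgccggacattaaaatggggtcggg
Sel1l, chr12:91849158-91849307, minus strand: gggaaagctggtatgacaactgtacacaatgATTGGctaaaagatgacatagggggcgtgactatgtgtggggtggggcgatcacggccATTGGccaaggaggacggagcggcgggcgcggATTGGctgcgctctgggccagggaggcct
Herpud1, chr8:94386279-94386428, plus strand: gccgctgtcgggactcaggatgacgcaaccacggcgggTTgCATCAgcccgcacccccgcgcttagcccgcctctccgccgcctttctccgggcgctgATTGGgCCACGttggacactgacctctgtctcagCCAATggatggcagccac
Hspa5, chr2:34771940-34772089, plus strand: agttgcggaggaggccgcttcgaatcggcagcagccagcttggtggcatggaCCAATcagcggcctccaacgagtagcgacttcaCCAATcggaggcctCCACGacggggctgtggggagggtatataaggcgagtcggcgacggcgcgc

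Herpud1 held element II 52 to 42 bases before its start, a match found in 0.0365% of the 32851 promoter windows, and the ATF4 core on the opposite strand. Hspa5 held the classic element 65 to 47 bases before its start, which 0.119% of windows had and 0 of the 9 windows of the described genes. The ATF4 core was found in 2 of the 9 windows, those of Herpud1 and Trib3, and in 3.97% of all windows. TGACGTG was in 0 of the 9 and in 2.01% of all. Sel1l had 4 CCAAT boxes within its window and Xbp1 had 0, while 37.4% of all windows had at least 1. A match here is a match of letters and no measured binding, and the window covers a small part of the sequence that can regulate a gene.

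Among the sensors, Ern1 had a lowest, median and highest intensity of 433, 451 and 488 in lactating mice and of 406, 438 and 457 in virgin mice. The groups overlapped, with 2 of 6 lactating mice above every virgin mouse. The log2 difference was 0.06 (95% interval −0.02 to 0.15, limma, unadjusted p = 0.145), and the exact two-sided permutation test over mice gave p = 0.102. Eif2ak3 ranged from 552 over a median of 611 to 642 in lactating mice and from 543 over 574 to 651 in virgin mice. Virgin mouse 3 had the highest Eif2ak3 value of all 12, and the difference of 0.06 did not pass (unadjusted p = 0.243). Atf6 ran from 934 over 1001 to 1052 in lactating mice and from 918 over 979 to 1005 in virgin mice. In 3 lactating mice Atf6 was above every virgin mouse, but lactating mouse 1, at 934, was below 4 of the 6 virgin mice, and the log2 difference was 0.05 (95% interval −0.04 to 0.13, unadjusted p = 0.259). The 95% interval of Eif2ak3 was −0.05 to 0.16. All 3 intervals include 0, so that small increases, no change and smaller decreases all remain possible at this precision.

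Xbp1 was the member with the greatest difference. Its intensity was lowest at 2805, had a median of 2962 and reached 3485 in lactating mice, against 2557, 2734 and 2862 in virgin mice. In 5 of the 6 lactating mice the value was above that of every virgin mouse, and the exception, lactating mouse 4, lay within the virgin range. Mean Xbp1 intensity was 3029 ± 237 (SD, n = 6) in lactating against 2721 ± 124 (SD, n = 6) in virgin females. On the log2 scale the difference was 0.15 ± 0.0524 (SE, limma, unadjusted p = 0.0129, adjusted p = 0.619 over all clusters), and the exact permutation test gave p = 0.00649. Lactating mouse 1 stood far above the rest, and without it the difference was 0.11 (unadjusted p = 0.0199).

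Neither of the other factors, nor their target Trib3, passed the test. Atf4, which PERK signaling acts on mainly at translation, had intensities of 983, 1041 and 1121 (lowest, median, highest) in lactating mice and of 944, 991 and 1072 in virgin mice. Only lactating mouse 3 was above every virgin mouse, and the log2 difference of 0.06 did not pass the test (95% interval −0.03 to 0.15, unadjusted p = 0.167). Ddit3 encodes CHOP, a factor known for promoting cell death under lasting ER stress. It ranged from 408 over 435 to 455 in lactating mice and from 389 over 440 to 475 in virgin mice. The lactating values lay wholly inside the virgin range, with a log2 difference of −0.02 (95% interval −0.13 to 0.09, unadjusted p = 0.726). Trib3, a pseudokinase induced by ATF4 and CHOP, ran from 611 over 643 to 709.5 in lactating mice and from 630 over 671 to 705 in virgin mice. Its lactating mice held both the lowest and the highest value of the 12, at a log2 difference of −0.03 (95% interval −0.13 to 0.06, unadjusted p = 0.469).

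**Figure D2:**
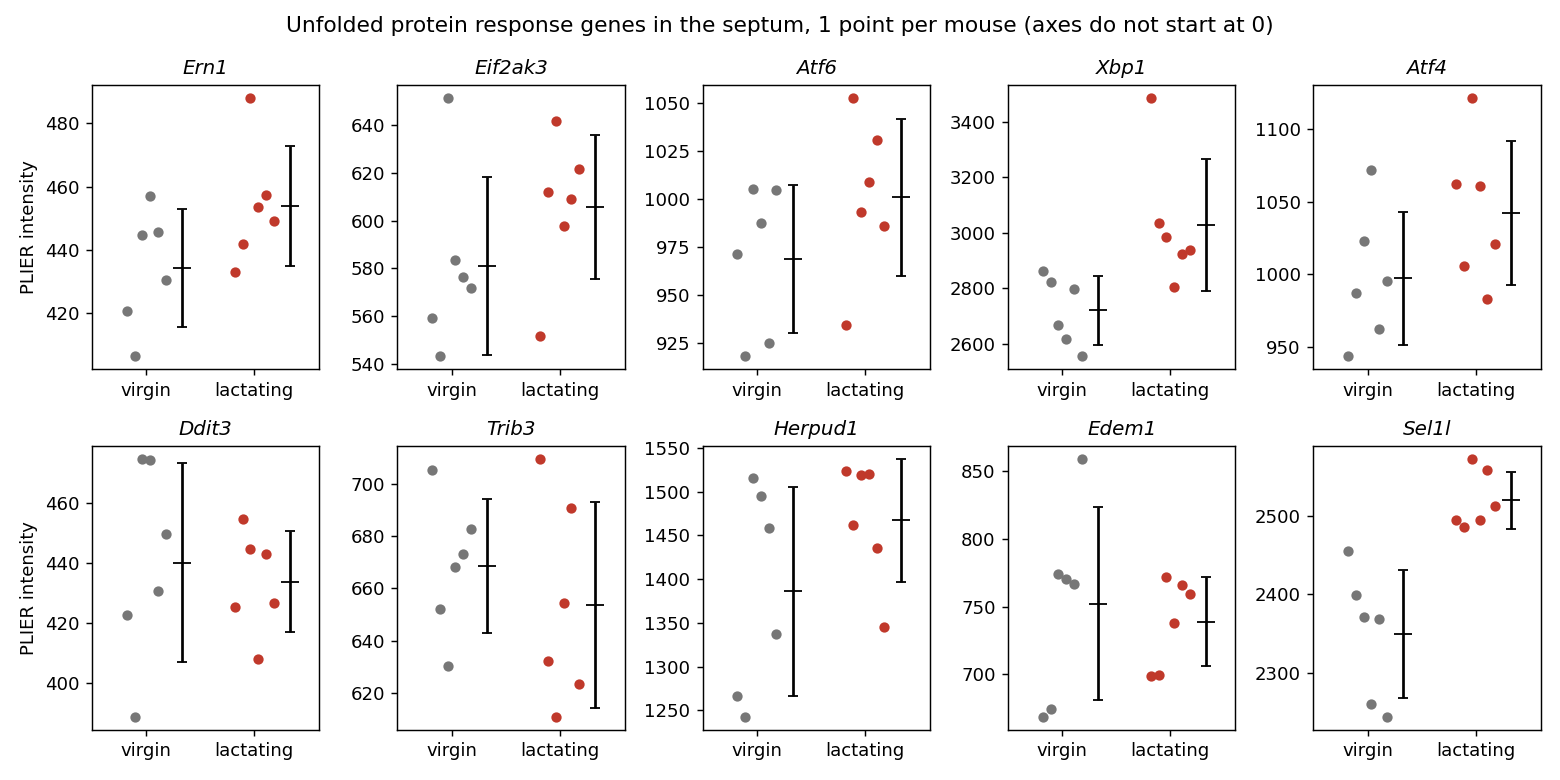
PLIER intensity (vertical axes, linear scale, not starting at 0) of the 10 genes for each of the 12 mice in replicate order, virgin in grey and lactating in red, beside the group mean with its SD. Sel1l is the gene whose groups do not overlap, Xbp1 overlaps through lactating mouse 4 alone, and the groups of the other 8 genes overlap more widely.

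Of the 3 ERAD genes described here, Sel1l passed the test and Herpud1 and Edem1 did not. Sel1l is the adaptor that holds the ubiquitin ligase of the main ERAD complex, encoded by Syvn1, in place. Its intensity was 2487, 2504 and 2574 (lowest, median, highest) in lactating mice and 2243, 2370 and 2456 in virgin mice. Each lactating mouse was above every virgin mouse, which was the case for 1 of the 10 genes and for 0.208% of all clusters. The mean was 2521 ± 36.9 (SD, n = 6) against 2350 ± 82.2 (SD, n = 6), with a log2 difference of 0.10 and a standard error of 0.0328 (limma, unadjusted p = 0.00881, adjusted p = 0.619 over all clusters). The exact permutation test gave p = 0.00216, the smallest value that 6 mice against 6 allow. Sel1l is on the list of genes that the study chose on these arrays, so its call is not independent evidence. Edem1, a lectin-like protein that directs misfolded glycoproteins to ERAD, ran from 699 over 749 to 772 in lactating mice and from 669 over 768 to 859 in virgin mice. Its virgin mice included the 2 lowest and the 2 highest values of all 12, and the log2 difference was −0.02 (95% interval −0.15 to 0.11, unadjusted p = 0.725).

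Herpud1, a membrane protein of the same complex and a sensitive transcript of ER stress, has element II in its promoter, as printed with the sequences. Its intensities were 1345, 1490 and 1524 in lactating mice and 1243, 1398 and 1515 in virgin mice, lowest, median and highest. In 3 lactating mice Herpud1 was slightly above the highest virgin mouse, and virgin mice spread over a range wider than that of lactating mice. The log2 difference was 0.08 (95% interval −0.04 to 0.21, limma, unadjusted p = 0.165, exact permutation test p = 0.154). This interval includes the difference measured for Xbp1, and whether Xbp1 and Herpud1 differed in their response was not tested.

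The 12 mice also varied in ways that cut across the groups. Virgin mouse 2 was below the 12-array mean for all 10 genes, by 0.09 on average on the log2 scale, and virgin mouse 1 for 8 of them, with Herpud1 at 1266 and Edem1 at 669. Clusters in the same intensity range had a median deviation of −0.05 in virgin mouse 2 and of −0.02 in virgin mouse 1. Lactating mice 3 and 5 were above the mean for 9 of the 10 genes each, by 0.06 and 0.03 on average, where clusters of like intensity had 0.05 and 0.01. The highest values of single genes lay in different animals, Xbp1, Herpud1 and Trib3 in lactating mouse 1, Ern1, Atf4 and Sel1l in lactating mouse 3 and Atf6 in lactating mouse 2. Virgin mouse 6 combined the lowest Xbp1 and Sel1l values with the highest Edem1 value, 859.

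**Figure D3:**
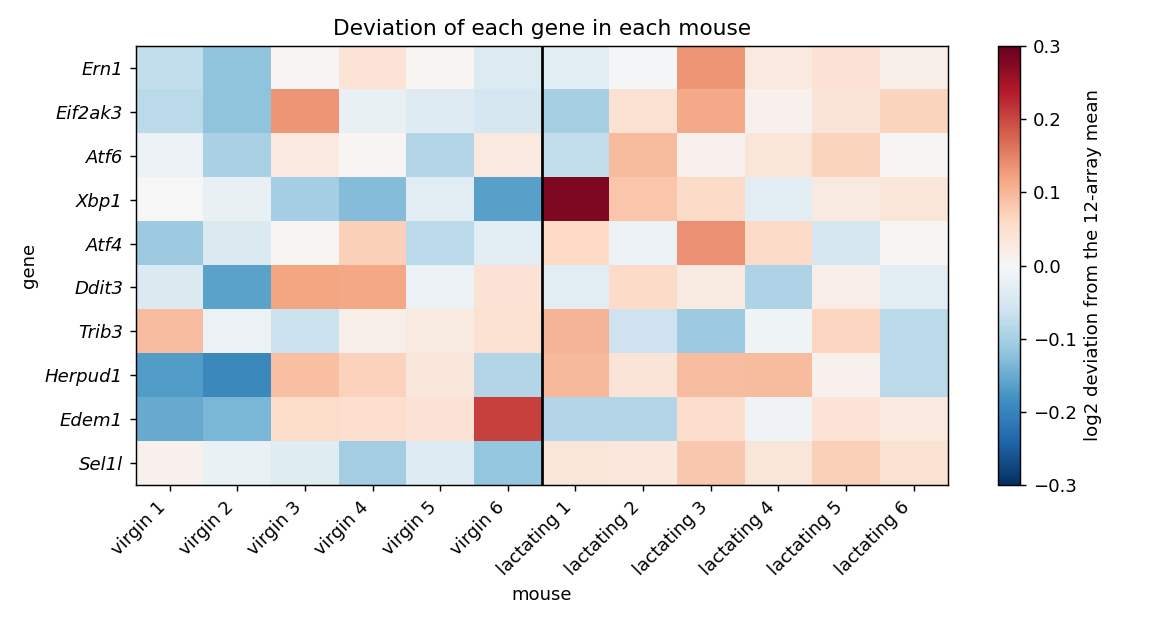
Log2 deviation of each of the 10 genes (rows) from its mean over the 12 arrays in each mouse (columns, virgin to the left of the line, lactating to the right), blue for below and red for above. Sel1l is blue or near white in virgin mice and red in all lactating mice, and Xbp1 in lactating mouse 1 and Edem1 in virgin mouse 6 are the darkest red cells.

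Hspa5 encodes BiP, the main chaperone of the ER lumen, which holds the sensors inactive until unfolded proteins draw it away. It ranged from 3633 over 4090 to 4875 in lactating mice and from 3259 over 3425 to 3653 in virgin mice, a log2 difference of 0.24 with a standard error of 0.0655 (limma, unadjusted p = 0.00289). Whether mice with more Hspa5 had more of each of the 10 genes was asked after the group means were removed, over 12 mice. For Xbp1 Pearson's r was 0.82 (permutation p = 0.00751, adjusted p = 0.0751 over 10 genes) and Spearman's rho 0.69 (permutation p = 0.0222, adjusted p = 0.222). Without lactating mice 1 and 2, the farthest from the median of Hspa5, r was 0.50 (permutation p = 0.136). Lactating mouse 2 lay near its group mean of Hspa5, and r was 0.82 without it alone but 0.55 without lactating mouse 1 alone (permutation p = 0.0855). The size of r and its permutation p thus depended on lactating mouse 1. Without lactating mice 1 and 4, the farthest from their group mean, r was 0.42 (permutation p = 0.24). It was 0.94 within the 6 lactating and 0.45 within the 6 virgin mice. For Sel1l r was 0.26 over all 12 mice (permutation p = 0.293, adjusted p = 0.572) and rho was 0.22 (permutation p = 0.489, adjusted p = 0.856), and r was 0.67 without lactating mice 1 and 2 and 0.56 without lactating mice 1 and 4. The other 8 genes had r between −0.32 for Atf6 and 0.45 for Trib3 and rho between −0.21 and 0.29, and their smallest permutation p was 0.226 for r and 0.383 for rho.

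**Figure D4:**
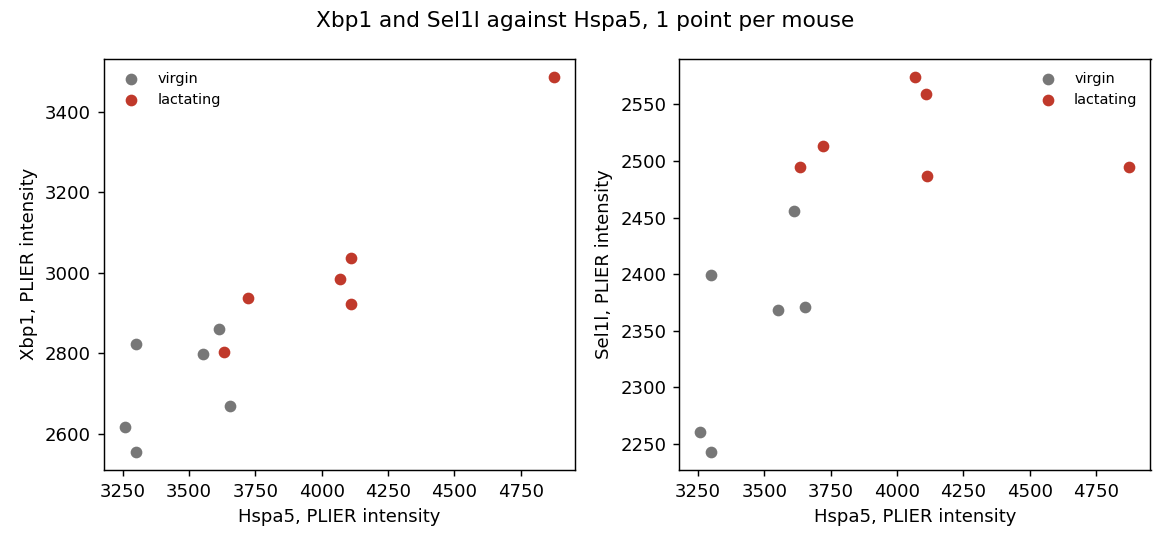
PLIER intensity of Xbp1 (left) and Sel1l (right) on the vertical axes against that of Hspa5 on the horizontal axes, 1 point per mouse, grey for virgin and red for lactating. The red point at the upper right of the Xbp1 plot is lactating mouse 1, with 3485 for Xbp1 and 4875 for Hspa5, and the Sel1l values of lactating mice change little across their Hspa5 range.

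The genes whose pattern over the 12 mice was most like that of Sel1l, with the group means removed, were Dach2 (Pearson's r 0.91), Mir133a-2 (0.89), Gpr139 (0.89), Pld5 (0.88) and Kcng2 (0.87). They are the top of all clusters with 1 gene symbol and are given as a description, and none of these 5 differed between groups at an unadjusted p under 0.05.

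The wider pathway was followed through 4 lists of other genes. Of 30 chaperones and folding enzymes of the ER lumen that ATF6 or XBP1 are known to induce, 12 were higher and 0 were lower by the same test, and the median log2 difference was 0.08. Those with the smallest p were Sdf2l1 (0.30), the disulfide isomerases Pdia4 (0.20) and Pdia6 (0.27) and Hspa5. Hsp90b1, the Hsp90 of the ER, had 0.11 (unadjusted p = 0.0123). Dnajb9, a BiP co-chaperone known as a target of XBP1, ranged from 2163 to 2391 in lactating and from 2133 to 2374 in virgin mice, a log2 difference of 0.02 (95% interval −0.06 to 0.10). The median over all genes, each with its brightest cluster, was −0.0043, and 3.86% of those 19938 genes were higher. Several of these chaperones are on the study's own list, so their calls are not independent evidence.

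Of 23 other ERAD genes, 1 was higher and 0 lower, with a median log2 difference of 0.05. This share of 4.35% is near the 3.86% of all genes that were higher. The gene was Derl2, a channel protein of the ERAD complex, with 399, 414 and 425 in lactating mice and 332, 385 and 404 in virgin mice (lowest, median, highest). Its log2 difference was 0.12 (limma, unadjusted p = 0.0259), and the list held 0 higher genes without lactating mouse 2, without virgin mouse 1 or with replicate number as a block. Next came Derl1 (0.06, unadjusted p = 0.103), Selenos (0.09, 0.11) and Aup1 (0.05, 0.135). Syvn1, the ligase that SEL1L holds, ranged from 1054 to 1154 in lactating and from 1006 to 1088 in virgin mice, a log2 difference of 0.05 that did not pass (95% interval −0.02 to 0.13). Derl3 had 0.02, with overlapping groups.

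Of 20 relatives of the sensors and factors, 2 were higher and 0 lower. That is 10% of the list, where 3.86% of all 19938 genes were higher. Among clusters with 1 gene symbol in the intensity range of the 10 genes the share was 6.63%. With 20 genes, 2 calls are few to set beside these shares. Atf6b, the second ATF6 factor, had 788, 796 and 844 in lactating mice and 717, 749 and 770 in virgin mice. Every lactating mouse was above every virgin mouse (log2 difference 0.10, unadjusted p = 0.00768, exact permutation test p = 0.00216), which was the case for 0.208% of all clusters. This gene too is on the study's list. Map3k5, a kinase downstream of IRE1, had a log2 difference of 0.14 with overlapping groups (unadjusted p = 0.0436). Trib1 (0.14, unadjusted p = 0.0587) and Creb3l3 (−0.09, 0.0746) did not pass. The median of this list was 0.03.

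Of 27 genes for eIF2alpha kinases and phosphatases and for targets of ATF4 or CHOP, 4 were higher and 1 was lower. The median log2 difference was 0.01. The higher share was 14.8%, where 3.86% of all 19938 genes were higher (769) and 963 were lower. Ppp1r15b, the constitutive partner of the phosphatase that removes the mark from eIF2alpha, had 645, 682 and 723 in lactating mice and 531, 622 and 664 in virgin mice. Its log2 difference was 0.15 (limma, unadjusted p = 0.0137). Eif2ak1, the heme-regulated eIF2alpha kinase, had 0.10 (unadjusted p = 0.014) and is on the study's list, Dnajc3, an inhibitor of PERK that is also counted among the chaperones, had 0.15 (0.0241), and Ddit4 had 0.12 (0.0262). The lower gene was Psat1, named here after its value was seen, an enzyme of serine synthesis, at −0.14 (unadjusted p = 0.0416). The stress-induced phosphatase partner Ppp1r15a ranged from 333 to 348 in lactating and from 314 to 350 in virgin mice, a log2 difference of 0.04 (95% interval −0.04 to 0.11). Asns, a target of ATF4 that makes asparagine, had 0.01 (95% interval −0.06 to 0.08).

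**Figure D5:**
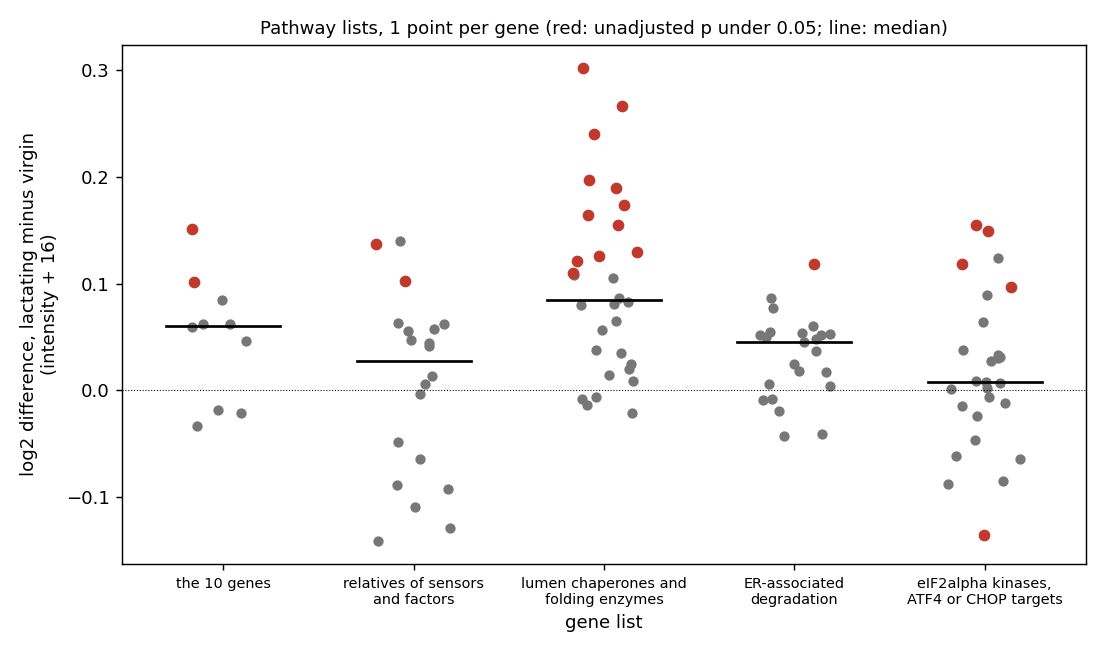
Log2 difference between lactating and virgin mice (vertical axis, intensity plus 16) of the 10 genes and of the genes of 4 pathway lists (horizontal axis), 1 point per gene, red for an unadjusted p under 0.05, with a line at the list's median. Chaperones and folding enzymes of the lumen have 12 red points and the highest median, 0.08, while the list with the ATF4 and CHOP targets lies around 0.01.

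The arrays had median intensities between 320 and 339. Markers of neurons were bright, with Snap25 at a mean of 12883 in lactating and 13155 in virgin mice, and those of septal neurons, Zic1 and Trpc4, were present in both groups. The summed intensity of 8 neuron markers ran from 52431 to 54674 in lactating and from 51767 to 55600 in virgin mice, and 0 of them passed an unadjusted p under 0.05. Likewise 0 of 8 lateral septum, 4 medial septum, 6 astrocyte, 5 oligodendrocyte and 6 endothelial markers passed. Of 6 striatal markers 0 passed, but 5 had negative differences, with a median log2 difference of −0.13. Their sum ran from 17714 to 28405 in lactating and from 23360 to 28017 in virgin mice, with means of 23269 and 25118 (exact permutation test, p = 0.273), and the lowest was in lactating mouse 4. For excitatory neurons of cortex and hippocampus 0 of 5 passed, but 4 had positive differences, with a median log2 difference of 0.49. Their sum ran from 871 to 6210 in lactating and from 1095 to 2347 in virgin mice. The means of the sum were 2431 and 1527 (exact permutation test, p = 0.374). The mouse at 6210 was lactating mouse 4, and without it the log2 difference was 0.17 for Xbp1 (limma, unadjusted p = 0.00752) and 0.10 for Sel1l (0.0141). Among 6 microglial markers P2ry12 and Cx3cr1 were lower, at −0.12 and −0.11, while 2 of the 6 had positive differences. P2ry12 is on the study's list. The 6 microglial markers summed to 3473 to 3799 in lactating and 3510 to 4406 in virgin mice (exact permutation test, p = 0.329). Clic6, 1 of 6 markers of ependyma and choroid plexus, and Alas2, 1 of 2 blood markers, were higher at 0.16 and 0.31. On linear intensities Clic6 did not pass (limma, unadjusted p = 0.054), while Alas2 did (0.0274). Of the 6 ependyma and choroid plexus markers, 4 had positive differences, as had the 2 blood markers. Those 6 summed to 1906 to 2099 against 1834 to 2076, and exact permutation of the sums gave p = 0.141. The 2 blood markers summed to 484 to 671 against 421 to 512, where the same permutation gave p = 0.0584. The part of these cell types in the differences above was not tested, and in tissue of this kind fewer cells of a type and less RNA per cell cannot be told apart.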

How the data were processed

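The deposited table gives PLIER intensities on a linear scale, which the authors made from the scanned arrays with GC bin background correction in Affymetrix Power Tools 1.12.0, with 1 array per mouse. Which genome build the platform annotation used is not given in the sources used here. Genes were named from the platform annotation, with current symbols through RefSeq. To each intensity 16 was added, the log2 was taken, and lactating was compared with virgin by limma 3.58.1 (lmFit, eBayes, two-sided) in R 4.3.3 over all 35556 clusters without a filter, with Benjamini-Hochberg adjustment over all of them. Single genes were also compared by exact permutation over the 924 assignments of 6 mice against 6. Correlations used 100000 permutations within groups. The methods name limma but not the scale, so linear intensities were an alternative, beside an added value of 1, filters, other normalizations, a variance trend, array weights, replicate number as a block, the mean over clusters and each array left out. For the correlations with Hspa5, leaving out other mice was chosen after seeing the data. The fit was tested on simulated data with independent noise in each cluster and no shifts between arrays. That test cannot show how scaling of the arrays affects the calls. Where a gene had several clusters, the brightest was used. RNA was extracted in pairs, but no source used here says which mice were paired. Of 6 replicate numbers, 2 had a correlation over 0.1 between the deviations of their mice. The numbers are not known to be the pairs, so this cannot show whether pairing mattered. Mice were treated as unpaired because the pairs are unknown. The 12 arrays limit the precision. The genes, lists and tests were chosen with earlier results of these data known. The text names the 10 genes, the 4 genes of each pathway list with the smallest p, and Hspa5, Hsp90b1, Dnajb9, Atf6b, Ppp1r15a, Asns, Syvn1 and Derl3. Cell type markers, Dach2 and the other genes like Sel1l were named beside these, and Psat1 was named after its value was seen. Of the list genes, 12 were not analysed here, since no cluster carries them as a single symbol.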

Additional observations from a re-analysis of the deposited data

Results flagged for a closer look

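In 5 of 66 groups of 6 mice (33 named genes, both groups), 1 mouse lay apart from the rest of its group by more than Dixon's critical value at 95%, which chance exceeds in about 1 in 20 groups. Xbp1 was 3485 in lactating mouse 1, and the next lactating mouse had 3036. In the same mouse the disulfide isomerase gene Pdia4 was 1959, with the next at 1746. Pdia6 was lowest in lactating mouse 4, at 1215, with the next at 1275. Eif2ak3 was 651 in virgin mouse 3, with the next at 583, and Derl1 was 2194 in virgin mouse 2, with the next at 2270.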

How the results depend on the processing

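The calls of all 10 genes, 2 higher and 0 lower, were the same under the 23 alternatives run. Each gene has 1 cluster, so the filters and the mean over clusters left its difference unchanged. They could move only the variance estimate, and agreement there adds little. The differences of Ddit3 and Edem1, which passed no test, changed sign when array medians were subtracted (0.0055 and 0.0021), and with 1 mouse left out they ran from −0.052 to 0.0037 (positive without virgin mouse 3 or 4) and from −0.054 to 0.017 (positive without virgin mouse 6). Without lactating mice 1 and 2, r against Hspa5 turned positive for Atf6 (0.13), Ern1 (0.30) and Eif2ak3 (0.46), and that of Sel1l was 0.67 (permutation p = 0.0383). In alternatives chosen after seeing the data, r of the same 3 sensors was 0.25, 0.15 and 0.37 without lactating mice 1 and 4. With either lactating mouse 1 or 2 left out, r ran from −0.38 to 0.24 for Atf6, from −0.18 to 0.17 for Ern1 and from −0.21 to 0.42 for Eif2ak3, positive without lactating mouse 1.

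The small list counts moved more. Relatives of the sensors had 4 higher with array medians subtracted, 1 lower with array weights, and, with 1 mouse left out, 1 to 2 higher and 0 to 1 lower. ERAD genes had 3 higher on linear intensities, 2 with array weights, 1 lower after quantile normalization, and 0 to 2 higher with 1 mouse left out (0 without lactating mouse 2 or virgin mouse 1, 2 without lactating mouse 1). The list with eIF2alpha kinases had 0 lower with array medians subtracted, and 2 to 4 higher (2 without virgin mouse 1 or 2) and 0 to 1 lower with 1 mouse left out. With replicate number as a block, 1 relative of the sensors and 0 ERAD genes were higher, while Xbp1 (limma, unadjusted p = 0.00702) and Sel1l (limma, unadjusted p = 0.0259) still passed. The cause of these shifts was not tested. Intensities near the array background limit dim genes, and all 10 genes lay above the median intensity. That median is over all clusters, of which 12146 list no gene. Ddit3 and Ern1 lay nearest to it, at percentiles of 57.5 and 58. Whether background reduced their differences was not tested.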
